A study of Mus musculus with 6 samples.

Results

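The TRIM (tripartite motif) genes were taken as the 66 rows, of 23420 gene rows, whose symbol begins with Trim and a number. The RNA of bone marrow-derived mesenchymal stromal cells (MSCs) held 36 of them at 10 or more reads in at least 3 of 6 libraries, and 35 of these reached 10 reads in all 6 libraries, with Trim7 the exception. Members known as interferon-inducible were described apart from the others: 9 of 15 such genes and 27 of the 51 other genes passed the limit. The 30 genes below it, 6 of them on the interferon-inducible list (Trim6, Trim14, Trim30b, Trim34b, Trim38 and Trim69), had at most 19 reads in any library, and 6 had none at all. Trim5 and Trim30c, which also stand on that list, have no row among the gene rows and so could not be analysed here.

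The study asked what expression of the thymoproteasome, a proteasome form of the thymic cortex, does to MSCs. Cells were flushed from femurs of female C57BL/6 mice 6 to 8 weeks old, grown in culture and transduced with the AP2 retroviral construct, which carries eGFP in both groups. Ctl MSC (3 libraries) had the construct without added genes, and MSC-TPr (3 libraries) had it with the 3 subunits β1i (Psmb9), β2i (Psmb10) and β5t (Psmb11) separated by a viral self-cleaving peptide. Nothing in the labels says that libraries of a group came from separate cultures or animals, so p-values measure the spread between these libraries, which may be technical.

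Each library held 16158756 to 22158887 reads on genes, and 3 reads in a library are worth 0.139 to 0.181 CPM, the counts scaled to TMM-adjusted library sizes. Of the 3 transduced genes, 0 were above all Ctl MSC libraries in each of the MSC-TPr libraries, and Psmb11 had 1 to 6 reads per library. The libraries numbered 1 stood apart: 10 cell division genes had a mean log2 CPM of 6.80 in Ctl MSC 1, 6.61 in MSC-TPr 2 and 6.72 in MSC-TPr 3, against 3.34 in Ctl MSC 2, 3.32 in Ctl MSC 3 and 3.38 in MSC-TPr 1. Each comparison is therefore one of library labels, and is given over all 6 libraries and over the 4 libraries numbered 2 and 3. Over those 4 libraries the cell division genes were high in MSC-TPr 2 and 3 and low in Ctl MSC 2 and 3. A difference of label and one of cell division cannot be told apart there. An exchange of labels between Ctl MSC 1 and MSC-TPr 1 was not tested, and it would change what each value over 6 libraries and each count without overlap means. Of 8 MSC markers, Thy1 had at most 1 read while the other 7 were detected, with summed levels of 881 to 1918 CPM over the Ctl MSC libraries and 697 to 1475 CPM over the MSC-TPr libraries. Within that sum Nt5e (CD73) was at 11.4 to 20.2 CPM against 2.66 to 5.24 CPM without overlap, with a log2 fold change of −2.02 (SE 0.3501, adjusted p = 0.0790 in edgeR) over 6 libraries and −1.99 (SE 0.188, adjusted p = 0.000810) over 4. Cd44 went the other way over the 4 libraries, with 1.88 (SE 0.115, adjusted p = 0.000205 in edgeR), and overlapped over 6. Ly6a, Eng, Pdgfra and Vcam1 were also higher over the 4 libraries, by less, and Pdgfrb was lower at −0.19 (SE 0.287). Of 8 blood cell markers with a row, 5 stayed under 10 reads in every library, Ptprc (CD45) at 0 to 2 reads, and their summed level was 11.2 to 14.5 CPM against 12.9 to 17.5 CPM. That sum came mainly from Cd68 and Cd14, which over the 4 libraries fell and rose, with log2 fold changes of −2.83 (SE 0.354, adjusted p = 0.00203 in edgeR) and 1.81 (SE 0.190, adjusted p = 0.00113). Of 4 endothelial markers, 3 stayed under 10 reads, and their sum was 0.785 to 3.09 CPM against 1.62 to 3.32 CPM. The part of other cell types in the values was not tested.

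TRIM proteins share a RING finger, B-box and coiled coil, and most act as E3 ubiquitin ligases, which pass ubiquitin from an E2 enzyme to a chosen substrate. The C-terminal part differs between members and sets what each protein binds: a PRYSPRY domain in the largest class, a PHD finger and bromodomain in chromatin regulators, NHL repeats in others. Several members with a PRYSPRY domain are switched on by interferon and act in antiviral defence and in the sensing of viral RNA.

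The clearest difference between the labels lay in the interferon-inducible members. Trim30a, Trim30d, Trim12a, Trim12c, Trim34a, Trim21 and Trim25 each stood lower in all 3 MSC-TPr libraries than in any Ctl MSC library, while Trim26 and Trim56 overlapped. Over all tested genes, 12.1% were lower in this way. No TRIM gene passed edgeR's quasi-likelihood test over 6 libraries at an adjusted p under 0.05 with a log2 fold change of at least 0.5, a limit that 0.401% of the 11974 tested genes passed downward and 0.0251% upward. Over the 4 libraries those 7 genes fell, at a background of 19.4% of 12122 genes called lower and 20.6% called higher. At an unadjusted p under 0.05 over 6 libraries, 8 TRIM genes were lower (the 7 and Trim2) and 0 higher, against 8.23% and 6.81% of all tested genes. DESeq2, which the study itself used, called 4 TRIM genes lower over 6 libraries (Trim30a, Trim30d, Trim12a and Trim12c) and 0 higher, against 3.24% and 1.8% of the 13253 genes with an adjusted p. The median log2 fold change of the 9 interferon-inducible genes was −1.50 over 6 libraries and −1.26 over 4, with all 9 below 0 in both, beside a median of 0.01 over all tested genes with 6 libraries.

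Stretches of these promoters are shown because most of them hold a run of letters of the kind that interferon-activated factors bind, the interferon-stimulated response element (ISRE). The RefSeq promoters (GRCm38.p6, from 250 bases before to 50 after the start site) of all 9 genes were searched on both strands for its core, GAAANNGAA. It was in the promoters of 8 of the 9 genes (88.89%), Trim56 being the exception, against 2 of 19 other TRIM genes with a promoter in the table (10.53%) and 9.761% of 27025 genes. The element TTCNNNGAA, known as GAS, was in 0 of 9, 2 of 19 (10.53%) and 9.554%. The 9 genes were listed because they are known as interferon-inducible, so their share is not independent of that choice. Some of the matches also lie in close copies, as given below the stretches. A match describes these letters and is not evidence of binding. In the stretches, written 5′ to 3′ along the gene, capitals mark the ISRE core, which reads TTCNNTTTC where it lies on the opposite strand; Trim21 and Trim26 hold 2 matches that overlap.
Trim30a, chr7:104465210-104465268, minus strand: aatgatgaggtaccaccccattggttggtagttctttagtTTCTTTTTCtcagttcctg
Trim30d, chr7:104507871-104507929, minus strand: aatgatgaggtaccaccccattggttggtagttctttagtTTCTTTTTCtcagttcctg
Trim12a, chr7:104315466-104315524, minus strand: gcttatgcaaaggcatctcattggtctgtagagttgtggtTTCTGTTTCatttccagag
Trim12c, chr7:104353359-104353417, minus strand: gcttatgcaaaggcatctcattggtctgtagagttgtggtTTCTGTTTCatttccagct
Trim34a, chr7:104244428-104244486, plus strand: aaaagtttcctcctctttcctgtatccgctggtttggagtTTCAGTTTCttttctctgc
Trim21, chr7:102565453-102565509, minus strand: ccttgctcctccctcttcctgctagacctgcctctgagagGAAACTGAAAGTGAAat
Trim25, chr11:88999354-88999412, plus strand: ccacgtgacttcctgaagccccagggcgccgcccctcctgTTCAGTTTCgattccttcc
Trim26, chr17:36836947-36837011, plus strand: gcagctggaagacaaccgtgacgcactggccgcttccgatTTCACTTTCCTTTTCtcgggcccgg
The stretches of Trim30a and Trim30d did not differ at any of 59 bases, and those of Trim12a and Trim12c differed at 2 of 59.

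Trim30a, which restrains TLR signalling in mouse immune cells, had the largest difference of the family. Its level was 34.6, 15.5 and 15.2 CPM in Ctl MSC 1 to 3 and 5.37, 2.72 and 2.64 CPM in MSC-TPr 1 to 3. All Ctl MSC libraries were above all MSC-TPr libraries, and Ctl MSC 1 was the highest. The means were 21.7 ± 11.1 and 3.58 ± 1.55 CPM (SD, n = 3), 6.07-fold apart. The log2 fold change was −2.60 (SE 0.472, adjusted p = 0.0877 in edgeR) over 6 libraries and −2.51 (SE 0.172, adjusted p = 0.000281) over 4, and DESeq2 gave an adjusted p of 1.45e-05 over 6 libraries. Leaving out each library in turn moved the edgeR adjusted p from 0.0734 to 0.342.

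Its neighbour Trim30d, a close paralog, was at 11.5, 6.41 and 6.01 CPM in Ctl MSC 1 to 3 and at 2.49, 0.651 and 1.62 CPM in MSC-TPr 1 to 3. The groups again did not overlap, with MSC-TPr 2 the lowest library. The log2 fold change was −2.32 (SE 0.534, adjusted p = 0.142 in edgeR) over 6 libraries and −2.39 (SE 0.372, adjusted p = 0.00415) over 4. Trim12c, a mouse relative of the antiretroviral restriction factor TRIM5, was at 23.99, 10.7 and 9.87 CPM in Ctl MSC 1 to 3 and at 6.37, 3.90 and 4.82 CPM in MSC-TPr 1 to 3. Trim12a, of the same group, was at 5.62, 3.47 and 3.09 CPM against 1.88, 1.12 and 1.48 CPM. For both genes the order of the libraries was that of Trim30a in that Ctl MSC 1 was highest. Trim12c had a log2 fold change of −1.56 (SE 0.416, adjusted p = 0.183 in edgeR) over 6 libraries and −1.23 (SE 0.191, adjusted p = 0.00415) over 4. Trim12a had −1.43 (SE 0.366, adjusted p = 0.178 in edgeR) and −1.31 (SE 0.267, adjusted p = 0.0105).

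Trim34a, another interferon-induced gene of this neighbourhood, was at 5.01, 2.99 and 2.54 CPM in Ctl MSC 1 to 3 and at 1.88, 0.592 and 1.11 CPM in MSC-TPr 1 to 3. Its log2 fold change was −1.55 (SE 0.502, adjusted p = 0.238 in edgeR) over 6 libraries and −1.65 (SE 0.3497, adjusted p = 0.0119) over 4. Trim21, whose protein is an antibody receptor in the cytosol that sends antibody-coated virus to the proteasome, was at 9.55, 3.79 and 4.19 CPM against 2.88, 1.18 and 2.09 CPM. The highest MSC-TPr library, at 2.88 CPM, was close to the lowest Ctl MSC library, at 3.79 CPM. The log2 fold change of Trim21 was −1.50 (SE 0.502, adjusted p = 0.246 in edgeR) over 6 libraries and −1.26 (SE 0.310, adjusted p = 0.0201) over 4.

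Trim25, which adds ubiquitin to the viral RNA sensor RIG-I and supports its signalling, was by far the most abundant of the 7 per length of RNA. It was at 118, 107 and 95.3 CPM in Ctl MSC 1 to 3 and at 76.5, 47.4 and 60.02 CPM in MSC-TPr 1 to 3, with no overlap. The difference was smaller than in the other 6 genes, with means 1.74-fold apart and a log2 fold change of −0.80 (SE 0.211, adjusted p = 0.183 in edgeR) over 6 libraries and −0.91 (SE 0.152, adjusted p = 0.00542) over 4. Trim26, a ligase described in the control of interferon induction, was at 37.6, 52.2 and 48.9 CPM in Ctl MSC 1 to 3 and at 56.2, 36.3 and 43.2 CPM in MSC-TPr 1 to 3. Its log2 fold change was −0.03 (SE 0.222, adjusted p = 0.961 in edgeR) over 6 libraries and −0.34 (SE 0.135, adjusted p = 0.0817) over 4. Trim56, which acts in the sensing of cytosolic nucleic acid, was at 11.2, 19.6 and 17.4 CPM against 15.8, 7.39 and 15.2 CPM, and its log2 fold change was −0.33 (SE 0.361, adjusted p = 0.718 in edgeR) and −0.70 (SE 0.321, adjusted p = 0.123). Both genes were lowest in MSC-TPr 2, and in both the group ranges overlapped.

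**Figure D1:**
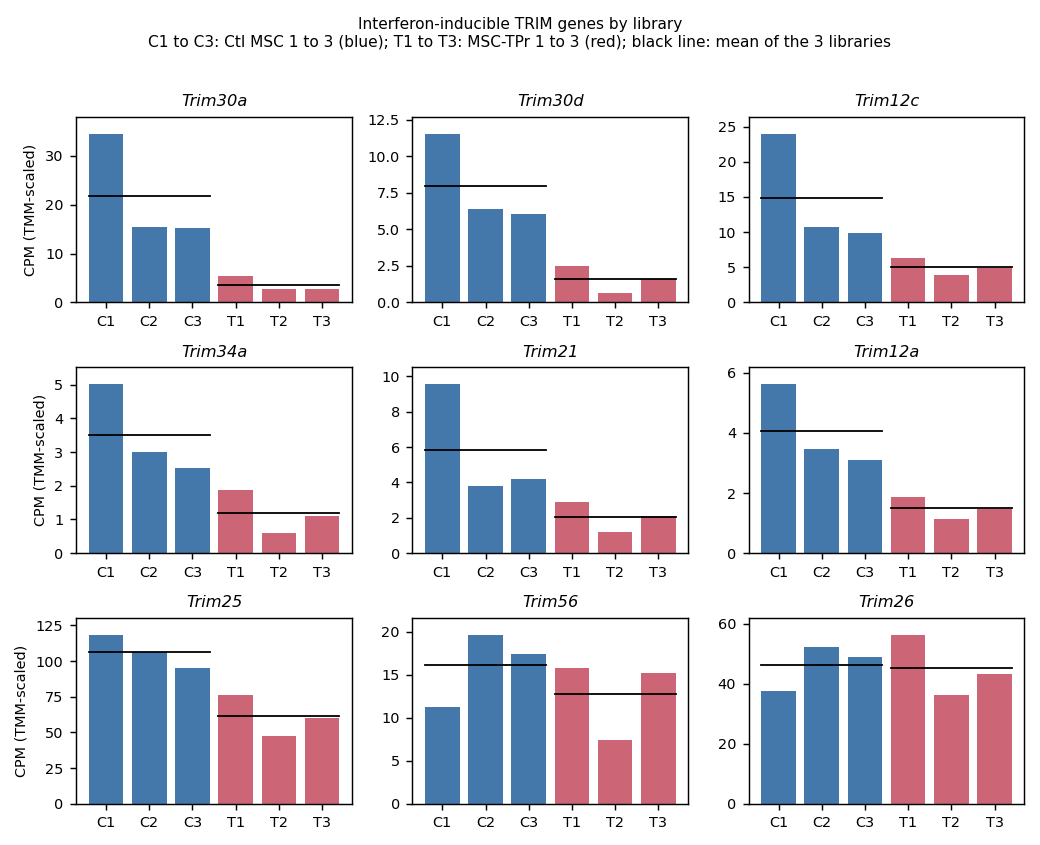
TMM-scaled CPM (vertical axis, linear from 0, with a scale of its own in each panel) of the 9 interferon-inducible TRIM genes in Ctl MSC 1 to 3 (blue) and MSC-TPr 1 to 3 (red), with a line at each group mean. In the panels from Trim30a to Trim25 every red bar is below every blue bar, with Trim30a at 2.64 to 5.37 CPM against 15.2 to 34.6 CPM, while Trim56 and Trim26 overlap.

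6 of the 9 interferon-inducible genes lie on chromosome 7 (mm10, GENCODE M21), 5 of them within 263393 bases: Trim34a at chr7:104244457-104262234 on the plus strand, then, on the minus strand, Trim12a at chr7:104299894-104315466, Trim12c at chr7:104338754-104353362, Trim30a at chr7:104409025-104465193 and Trim30d at chr7:104470014-104507849. Trim21 lies outside that cluster, at chr7:102557921-102565486. The other 3 lie elsewhere: Trim25 at chr11:88999376-89020293, Trim26 at chr17:36837134-36859398 and Trim56 at chr5:137105644-137116209. The summed level of the 6 genes on chromosome 7 was 90.3, 42.9 and 40.9 CPM in Ctl MSC 1 to 3 and 20.9, 10.2 and 13.8 CPM in MSC-TPr 1 to 3. All 6 were lower in MSC-TPr without overlap, as was Trim25 on chromosome 11, beside 12.1% of all tested genes. Lower levels were thus not found in the cluster alone.

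Counts of the clustered genes are uncertain in part because they are close copies. Of the 100-base windows along the longest transcript, Trim34a shared 22.6% exactly with Trim34b, and Trim12c 7.64% with Trim12a, Trim5 or a small RNA. Trim30d shared 5.53% and Trim30a 4.79% with each other, and Trim12a 0.413% with genes of other families. Only the longest Trim12a transcript was scanned, so what Trim12c shares with other Trim12a transcripts is not in that last share. Htseq sets aside reads that map equally well to several places, 5.89% to 8.92% of the reads of each library. An opposite-strand gene model overlaps 609 exon bases of Trim34a, and the strand setting of the counting is not given in the sources used here.

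**Figure D2:**
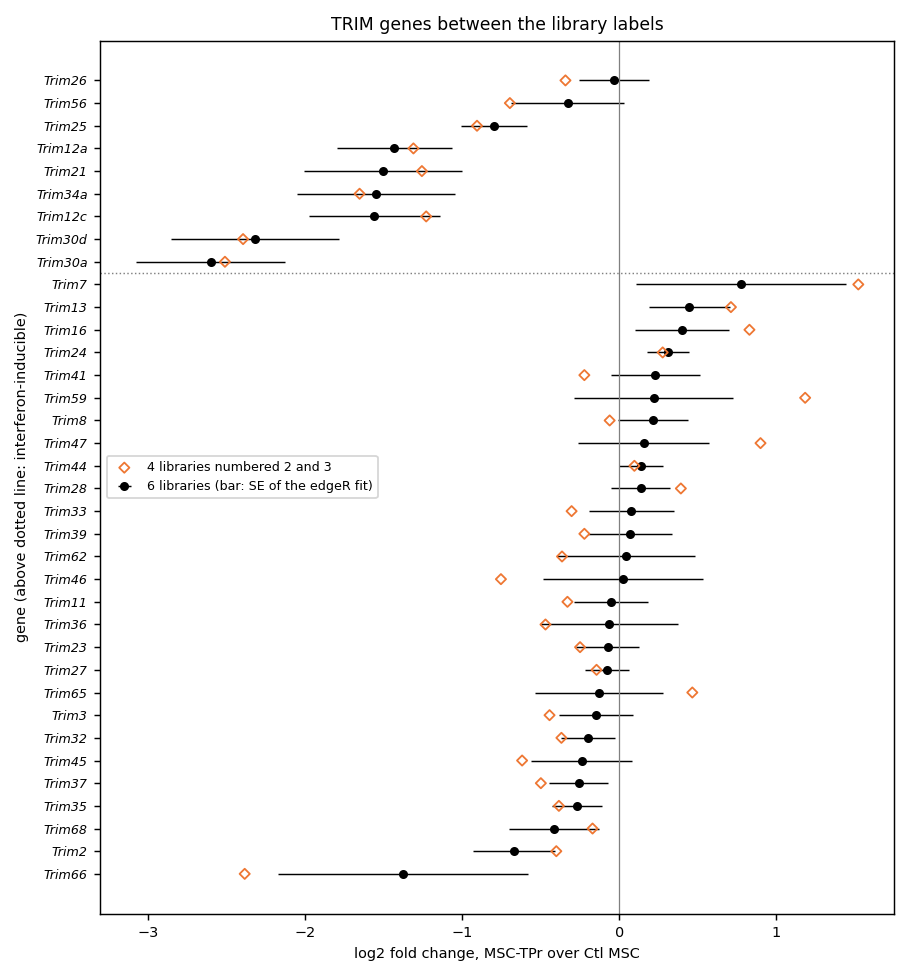
log2 fold change of MSC-TPr over Ctl MSC (horizontal axis) for the 36 TRIM genes (rows, interferon-inducible genes above the dotted line), with filled points and SE bars for the fit of 6 libraries and open diamonds for the 4 libraries numbered 2 and 3. Interferon-inducible genes reach −2.60 at Trim30a and are all at or below −0.03 in filled points, whereas the 27 others lie on both sides of 0, from −1.38 at Trim66 to 0.77 at Trim7.

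The 27 other TRIM genes had no shared direction over 6 libraries, where 14 log2 fold changes were above 0 and 13 below, with a median of 0.02, and edgeR called none of them. Over 4 libraries 9 were above 0 and 18 below, with a median of −0.22. All tested genes had 6049 above 0 and 6073 below in that fit, with a median of −0.0016. The summed level of the 27 genes was 1403 to 1616 CPM over the Ctl MSC libraries and 1479 to 1495 CPM over the MSC-TPr libraries. Groups that did not overlap were found for Trim2 downward and Trim24 upward, so that with the 7 interferon-inducible genes 8 TRIM genes were lower and 1 higher without overlap, against 12.1% and 10.6% of all tested genes. Of the 27 others, that is 1 gene in each direction, below the background share. Over the 4 libraries 23 TRIM genes were lower and 8 higher without overlap, against 39.2% and 38.3% of all genes.

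Trim2, an NHL-repeat ligase known for its role in axons, was at 54.4, 51.97 and 48.7 CPM in Ctl MSC 1 to 3 and at 21.4, 33.6 and 42.4 CPM in MSC-TPr 1 to 3. Its Ctl MSC libraries lay close together and its MSC-TPr libraries were spread, with MSC-TPr 1 the lowest, and the log2 fold change was −0.67 (SE 0.260, adjusted p = 0.300 in edgeR) over 6 libraries and −0.40 (SE 0.149, adjusted p = 0.0699) over 4. Trim24, a chromatin reader and co-regulator of nuclear receptors, was at 42.5, 45.8 and 43.5 CPM against 55.5, 50.6 and 57.3 CPM. That difference was small, with a log2 fold change of 0.31 (SE 0.135, adjusted p = 0.347 in edgeR) over 6 libraries and 0.28 (SE 0.123, adjusted p = 0.113) over 4.

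Among these 27 genes the libraries numbered 1 mostly had levels like those of the opposite label. On the log2 CPM scale, Ctl MSC 1 was nearer to the mean of MSC-TPr 2 and 3 than to that of Ctl MSC 2 and 3 for 21 genes (77.8%), and MSC-TPr 1 was nearer to Ctl MSC 2 and 3 for 19 (70.4%). The shares over all tested genes were 61% and 59.6%. Among the 9 interferon-inducible genes they were 2 genes (22.2%) and 5 genes (55.6%). Ctl MSC 1 was above both other Ctl MSC libraries for each of the 7 genes whose groups did not overlap.

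Over the 4 libraries numbered 2 and 3, 5 of the 27 rose (Trim59, Trim47, Trim16, Trim7 and Trim13) and 2 fell (Trim66 and Trim46), beside the 20.6% and 19.4% given above for all genes. None of these 7 was called over 6 libraries, and the libraries numbered 1 are what the fits differ by. Trim13 was named after its value was seen, as the remaining member called.

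Trim66, a chromatin-associated relative of Trim24 with a PHD finger and bromodomain, lies at chr7:109449006-109508134, and had the largest difference of the 27. It was at 9.43, 90.8 and 88.0 CPM in Ctl MSC 1 to 3 and at 38.2, 17.2 and 17.02 CPM in MSC-TPr 1 to 3. Ctl MSC 1 was the lowest of the 6 libraries although the other Ctl MSC libraries were the highest. The log2 fold change was −1.38 (SE 0.796, adjusted p = 0.472 in edgeR) over 6 libraries and −2.38 (SE 0.117, adjusted p = 0.000115) over 4. Trim46, which organises microtubules at the start of the axon, was at 9.49, 31.2 and 28.3 CPM against 34.9, 20.3 and 15.03 CPM. It too was lowest in Ctl MSC 1, and its log2 fold change was 0.02 (SE 0.507, adjusted p = 0.989 in edgeR) over 6 libraries and −0.75 (SE 0.176, adjusted p = 0.0167) over 4. Trim66 and Trim46 were both lower in Ctl MSC 1, MSC-TPr 2 and MSC-TPr 3, where cell division genes were high, than in the other libraries. The part of cell division in these values was not tested.

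Trim59, a membrane-anchored ligase, was at 114, 40.3 and 41.6 CPM in Ctl MSC 1 to 3 and at 41.7, 102 and 83.8 CPM in MSC-TPr 1 to 3. High levels thus stood in the same 3 libraries that had high cell division genes, Ctl MSC 1, MSC-TPr 2 and MSC-TPr 3, and the part of cell division in the value was not tested. The log2 fold change was 0.22 (SE 0.507, adjusted p = 0.877 in edgeR) over 6 libraries and 1.18 (SE 0.137, adjusted p = 0.00158) over 4. Trim47 was at 61.3, 28.3 and 27.8 CPM against 26.2, 57.0 and 47.4 CPM, and Trim16, which has no RING and acts in autophagy of damaged membranes, at 47.3, 34.2 and 32.05 CPM against 32.1, 65.4 and 52.05 CPM. Both were highest in the same 3 libraries as Trim59. Their log2 fold changes over 4 libraries were 0.90 (SE 0.137, adjusted p = 0.00389 in edgeR) and 0.83 (SE 0.149, adjusted p = 0.00679), against 0.15 (SE 0.416) and 0.40 (SE 0.298) over 6. Trim7, the least abundant member described, was at 0.785, 0.374 and 0.552 CPM against 0.277, 1.01 and 1.62 CPM, at 5 to 35 reads per library, with a log2 fold change of 1.52 (SE 0.427, adjusted p = 0.0305 in edgeR) over 4 libraries and 0.77 (SE 0.667) over 6. Trim13, a ligase of the endoplasmic reticulum, was at 5.50, 4.01 and 3.59 CPM against 5.43, 6.09 and 6.31 CPM, with 0.71 (SE 0.191, adjusted p = 0.0265 in edgeR) over 4 libraries and 0.45 (SE 0.257, adjusted p = 0.472) over 6. Trim47 shares 225 exon bases with Trim65 on the same strand and Trim16 shares 237 with Fbxw10, while Trim46 and Trim7 have 239 and 631 exon bases opposite other genes.

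**Figure D3:**
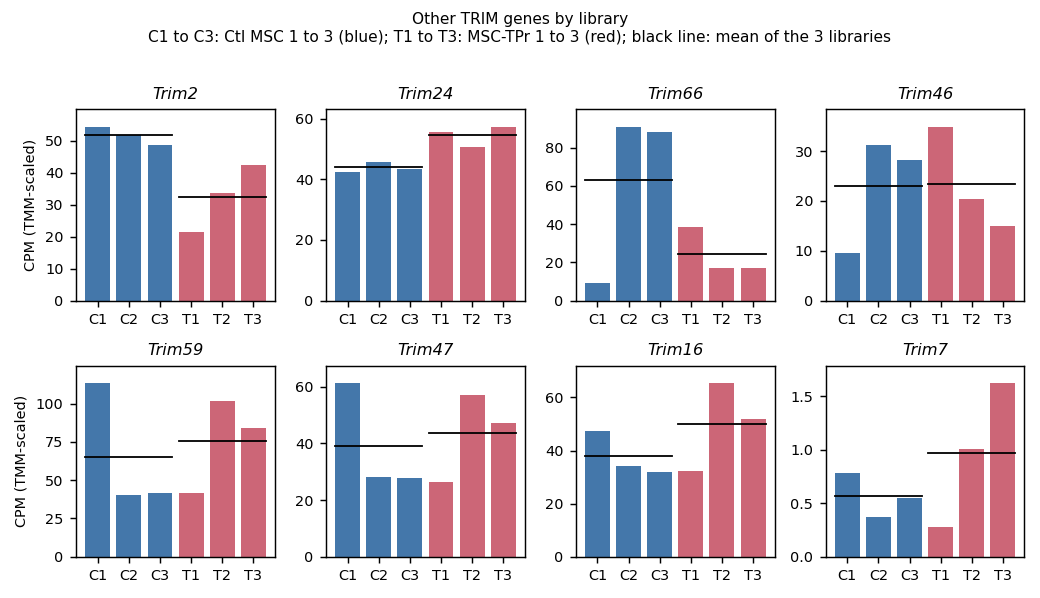
TMM-scaled CPM (vertical axis, linear from 0, scale of its own in each panel) of 8 other TRIM genes in Ctl MSC 1 to 3 (blue) and MSC-TPr 1 to 3 (red), with a line at each group mean. Trim2 and Trim24 separate the labels, whereas Trim59, at 114 CPM in Ctl MSC 1 but 41.7 CPM in MSC-TPr 1, has the libraries numbered 1 at the levels of the opposite label, as do Trim47 and Trim16, and Trim66 and Trim46 are lowest in Ctl MSC 1.

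By level per kilobase of exon, Trim35, a ligase of the PRYSPRY class, stood first with a mean over 6 libraries of 58.8 CPM per kilobase (51.6 to 69.9 over the libraries). Trim28 (KAP1), the corepressor that silences endogenous retroviruses through KRAB zinc finger proteins, followed with 44.7 (38.5 to 52.4), and the ranges of both touched. Trim44, which has no RING, had 26.6 (23.02 to 29.5), Trim59 21.03 (12.03 to 33.9), Trim8 20.9 (13.8 to 25) and Trim27 17.3 (15.8 to 19.2). From Trim44 to Trim27, neighbours in the order did not differ beyond the spread of their libraries, whereas Trim28 and Trim44 did not overlap. Trim25 was the highest interferon-inducible member with 14.6 (8.23 to 20.6), and the others ranged from Trim26 at 6.66 to Trim12a at 0.481, so the interferon-inducible genes other than Trim25 were of middle to low level. Lengths are of all annotated exons, so genes with long unused exons are understated.

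**Figure D4:**
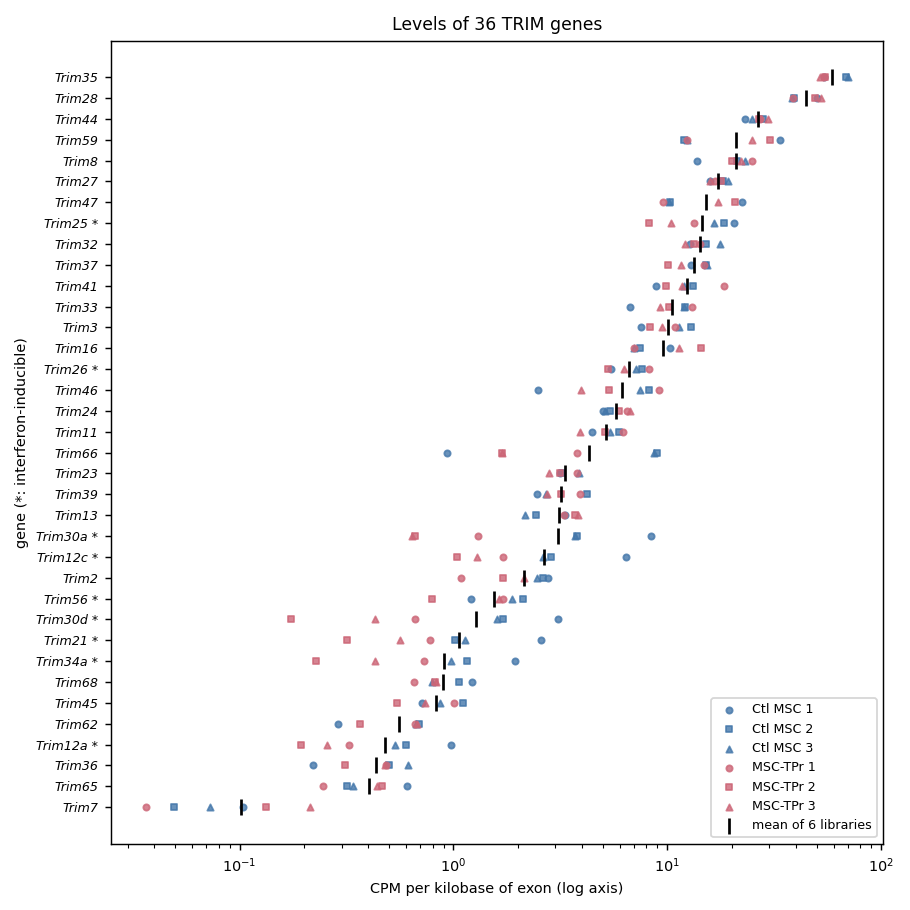
CPM per kilobase of exon (horizontal log axis) of the 36 TRIM genes (rows, ordered by mean, with * for interferon-inducible) in each of the 6 libraries, blue for Ctl MSC, red for MSC-TPr, with the shape giving the library number and a vertical line for the mean. Levels run from 58.8 for Trim35 to 0.101 for Trim7, and the rows with the widest spread include Trim66, Trim30a and Trim30d.

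Among the 6 genes of highest level, Trim59 is described above, and the other 5 had small differences between labels. Trim35 was at 249.2, 318 and 323 CPM in Ctl MSC 1 to 3 and at 249.1, 252 and 238 CPM in MSC-TPr 1 to 3, and Trim28 was at 209, 162 and 160 CPM against 161, 204 and 218 CPM. Over 6 libraries the log2 fold changes were −0.27 (SE 0.159) for Trim35, 0.13 (SE 0.188) for Trim28, 0.14 (SE 0.141) for Trim44, 0.21 (SE 0.225) for Trim8 and −0.08 (SE 0.143) for Trim27, and edgeR called none of the 5. Trim44 has been described as a TRIM protein with deubiquitinating activity, and Trim8 and Trim27 as regulators of NF-κB signalling. Over 4 libraries Trim35 had −0.38 (SE 0.113, adjusted p = 0.0348 in edgeR) and Trim28 0.39 (SE 0.111, adjusted p = 0.0317), both under the fold change limit. The remaining 13 of the 36 genes were not called in either fit.

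By class over the 4 libraries, with 19.4% of all genes called lower and 20.6% higher, 7 of 18 PRYSPRY genes were called lower, all of them the interferon-inducible genes above, and 2 higher. Of the other classes, 1 of 4 PHD-bromodomain genes and 1 of the 2 with COS, FN3 and SPRY domains were called lower, and both transmembrane genes and 1 of the 2 without RING higher. Over 6 libraries edgeR called no gene of any class and DESeq2 the 4 PRYSPRY genes given above, and the medians were −0.20 for PRYSPRY, 0.11 for PHD-bromodomain and −0.20 for the 3 NHL genes.

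Lists of genes that act with TRIM proteins were read from the same fits. In the RIG-I pathway, on which TRIM25 acts, edgeR called 0 of 8 genes over 6 libraries. DESeq2 called 3 lower, beside 3.24% of all genes with an adjusted p. Over 4 libraries 3 fell, beside 19.4% of all genes: Irf7, the transcription factor that amplifies interferon production, Ddx58 (RIG-I) and Isg15, a ubiquitin-like protein. Isg15 was at 105.7, 31.5 and 35.1 CPM in Ctl MSC 1 to 3 and at 5.48, 6.03 and 4.64 CPM in MSC-TPr 1 to 3, with a log2 fold change of −3.41 (SE 0.533, adjusted p = 0.0722 in edgeR) over 6 libraries and −2.64 (SE 0.178, adjusted p = 0.000275) over 4. Irf7 had −2.82 (SE 0.386, adjusted p = 0.0504 in edgeR) and −2.50 (SE 0.208, adjusted p = 0.000536), and Ddx58 −2.11 (SE 0.325, adjusted p = 0.0697 in edgeR) and −1.66 (SE 0.178, adjusted p = 0.00122). The other 5 genes included 3 without overlap between the groups, of which 2 were higher and 1 lower, beside 10.6% and 12.1% of all genes. The median of the 8 was −0.47. Among 7 partners of TRIM28, 0 were called over 6 libraries by either tool and 2 rose over 4, beside 20.6% of all genes. Chd3 was higher (log2 fold change 0.68, SE 0.246) and Cbx1 lower (−0.33, SE 0.148) without overlap, beside 10.6% and 12.1% of all genes, and the median of the 7 was 0.12. Among 9 E2 enzymes that work with TRIM ligases, edgeR called 0 and DESeq2 1 (higher) over 6 libraries, the latter beside 1.8% of all genes. Over 4 libraries 3 rose, beside 20.6% of all genes, and the median over 6 was 0.07. Without overlap, beside 10.6% and 12.1% of all genes, Ube2v1 was higher (0.54, SE 0.148) and Ube2d1 lower (−0.30, SE 0.154). Of 8 family members with other names, Pml, Mid1 and Mid2 were tested and none was called in either fit. The interferon-inducible list held only genes with a Trim symbol, so Pml was not on it. Pml overlapped between the groups, with a log2 fold change of −0.23 (SE 0.248) over 6 libraries and 0.13 (SE 0.137) over 4.

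The difference in the interferon-inducible TRIM genes stood beside a like one in a list of 10 interferon response genes, among them Isg15 and Irf7, already given above. The mean log2 CPM of 10 such genes was 5.46, 4.28 and 4.37 in Ctl MSC 1 to 3 and 2.55, 2.47 and 2.28 in MSC-TPr 1 to 3, and their summed level was 353 to 820 CPM against 95.4 to 125 CPM. Ctl MSC 1 was highest in both sets. Genes outside that list did not all follow it: Ifih1 of the RIG-I pathway and the E2 enzyme Ube2l6 overlapped between the groups, as did Pml. Ifih1 had a log2 fold change of −0.73 (SE 0.379) over 6 libraries and −0.11 (SE 0.163) over 4. Ube2l6 had −0.61 (SE 0.669) over 6 and was called higher over 4, at 0.77 (SE 0.203, adjusted p = 0.0248 in edgeR). These are bulk samples, in which fewer cells of a type and less RNA per cell cannot be told apart, and proteins were not measured here.

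**Figure D5:**
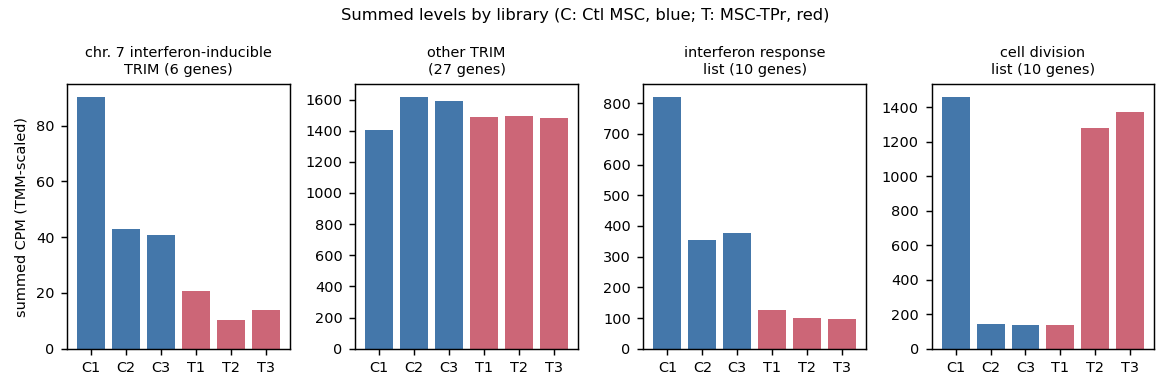
Summed TMM-scaled CPM (vertical axes, linear from 0) by library, blue for Ctl MSC 1 to 3 and red for MSC-TPr 1 to 3, of the 6 interferon-inducible TRIM genes on chromosome 7, the 27 other TRIM genes, 10 interferon response genes and 10 cell division genes. The first set ranges from 90.3 CPM in Ctl MSC 1 to 10.2 CPM in MSC-TPr 2 and, like the interferon response genes, is highest in Ctl MSC 1 and lower in all MSC-TPr libraries, the other TRIM genes vary only from 1403 to 1616 CPM, and the cell division genes are high in Ctl MSC 1, MSC-TPr 2 and MSC-TPr 3.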

How the data were processed

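RNA of 3 Ctl MSC and 3 MSC-TPr libraries was sequenced paired-end after stranded polyA selection. The authors aligned reads to mm10 and counted them per gene with Htseq-count, and deposited raw counts without normalization. The submitters' processing notes name CASAVA 1.8.2, Trimmomatic 0.35 and TopHat2 2.1.0. The annotation and strand setting of the counting are not given in the sources used here.

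Counts were tested in R 4.3.3 with edgeR 4.0.16 (TMM, filterByExpr, quasi-likelihood test, group as the only term), with Benjamini-Hochberg adjustment over all genes tested. The limits for a call were 0.05 for the adjusted p and 0.5 for the size of the log2 fold change. Standard errors are the size of the log2 fold change divided by the square root of F, and describe the test. CPM use TMM-scaled library sizes, and 0.5 CPM was added before a log2 mean. The fit was checked on simulated counts in which no library stood apart, so that check does not cover the pattern of the libraries numbered 1. Alternatives were DESeq2 1.42.0, RLE and upper quartile scaling, other count filters, a replicate block, leaving out each library, the 4 libraries numbered 2 and 3, no fold change limit, 10 reads in all 6 libraries for members, and a narrower interferon-inducible list. Same-numbered libraries were taken as unpaired.

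Members and lists were chosen with earlier results of these data known. Named genes were every interferon-inducible member passing the limit of 10 reads in at least 3 libraries, others called over 6 libraries or without overlap between groups, the 6 with the highest level per kilobase, the 6 with the largest fold change over 4 libraries, and, of related genes, those called or without overlap, at most 3 a list. Coordinates and exon lengths are from GENCODE M21, and promoters from RefSeq. Protein sequences were not analysed here.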

Additional observations from a re-analysis of the deposited data

How the results depend on the processing

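No TRIM gene was called in either direction under RLE or upper quartile scaling, other count filters, no fold change limit, or without any library in turn (0 in all 6 such fits). DESeq2 called 4 lower, beside 3.24% of all genes with an adjusted p. The 4 libraries numbered 2 and 3 gave 9 lower and 5 higher, beside 19.4% and 20.6% of all genes. The cause of these differences was not tested. The median of the interferon-inducible genes ranged from −1.76 to −1.03 when libraries were left out in turn, with −1.03 without Ctl MSC 1. That of the other TRIM genes turned from 0.02 to −0.22 over the 4 libraries, and ranged from −0.15 to 0.0525 with libraries left out, −0.15 being without Ctl MSC 1. TRIM genes without overlap numbered 8 higher and 23 lower over the 4 libraries, where the shares over all genes were 38.3% and 39.2%. With libraries left out they numbered 1 to 4 higher and 8 to 16 lower. No share over all genes was taken beside those counts, and smaller groups separate more easily, so they are not read as a result about TRIM genes. Of the named genes, Trim8 turned to −0.0616 over the 4 libraries and Trim46 to −0.75, and Trim46 also to −0.00638 with upper quartile scaling. With libraries left out, log2 fold changes ranged from −0.22 to 0.11 for Trim26, −0.38 to 0.31 for Trim46, −0.0824 to 0.64 for Trim47 and −0.0482 to 0.89 for Trim59. With replicate number as a term (replicate block), 0 TRIM genes were called, the interferon-inducible median was −1.47 and Trim30a had −2.57 (edgeR adjusted p = 0.297). Same-numbered libraries deviated from their group means in opposite directions (correlations −0.774, −0.620 and −0.619). These values are not independent, because the libraries numbered 1 stood apart and so shaped each group mean. Ctl MSC 2 with MSC-TPr 3 (−0.580) and Ctl MSC 3 with MSC-TPr 2 (−0.600) were alike. The correlations therefore cannot decide on pairing, and the numbers were not taken to pair samples. Depth limits values near 0.181 CPM, the worth of 3 reads in the shallowest library, and the lowest value of a named gene was 0.277 CPM (Trim7 in MSC-TPr 1).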
